A study of Mus musculus with 10 samples.

Results

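The genes described here encode the translation initiation and elongation factors of mouse neutrophils. They were chosen by gene symbol, as those that start with Eif or Eef and a number, without the eIF2 kinases (Eif2ak1 to Eif2ak4), and 58 of the 13091 genes in the deposited tables met this rule. The rule reads the symbol and no measured value, but the genes were chosen with earlier results of these data known. RNA sequencing of polyadenylated RNA was carried out on neutrophils differentiated from progenitors that had been immortalized by an estrogen-dependent HoxB8, which holds progenitors from bone marrow in a dividing state until estrogen is removed. The progenitors came from wild-type (Vim+/+) mice and from mice without vimentin (Vim-/-), an intermediate filament protein, and the labels give the strain as 129-SVEV for both genotypes and call the second genotype a knockdown where the study's methods call it a knockout. Each line was 1 clone, all lines carried HoxB8, and all were differentiated by estrogen removal with IL-3 and GCSF. Neutrophils were left unstimulated or given 25 ng/mL LPS, a bacterial wall component, for 1 hour, with 2 Vim+/+ and 3 Vim-/- biological replicates in each condition, which gave 10 libraries in 4 groups. Whether each replicate was a different clone is not given in the sources used here. The ages of the mice are not given in the sources used here.

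The deposited values are comparisons and not measurements of single libraries. For each gene the tables hold baseMean, which is the mean normalized count over the 10 libraries, and 4 log2 fold changes, each with a standard error (SE) and an adjusted p from the Wald test of DESeq2. A value for each replicate therefore cannot be shown, library depth is likewise unknown, and every value below is a fold change between groups of 2 and 3 replicates. Genotype fold changes are given as Vim-/- over Vim+/+, so that a negative value means less RNA in Vim-/- neutrophils. A gene is said to have passed, to be lower or to be higher only where its adjusted p was under 0.05. These p-values measure the spread between the labelled replicates, which may be technical in part, and 4 group means and 4 covariates fitted to 10 libraries leave 2 degrees of freedom.

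Translation starts when eIF4E binds the mRNA cap and, with the scaffold eIF4G and the helicase eIF4A, loads the small ribosomal subunit, which carries eIF3, eIF1, eIF1A, eIF5 and the initiator tRNA held by eIF2. eIF2B recharges eIF2 with GTP, and eIF5B joins the large subunit at the start codon. eEF1A then delivers each aminoacyl tRNA, the eEF1B subunits recharge eEF1A with GTP, and eEF2 moves the ribosome along by a codon. Protein synthesis is most active in the early, dividing stages of neutrophil development and declines as the cells mature. Many mRNAs of elongation factors and of some eIF3 subunits carry a 5′ terminal oligopyrimidine (TOP) motif, a run of pyrimidines that begins with C at the cap and through which mTORC1 and LARP1 control their translation.

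The bases around the annotated start of transcription are shown for 11 of the 18 genes that passed in a genotype comparison, because several of them belong to this TOP class. RefSeq entries (GRCm38.p6) were matched for 44 of the 58 genes. Eef1d, Eef1g, Eif3e, Eif3h, Eif3i, Eif4e3 and Eif4ebp1 were not matched. Each line holds 30 bases of the transcript strand, 15 on each side of the start, and capitals mark the longest stretch of a C followed by at least 4 bases that are C or T.
Eef1a1, chr9:78481710-78481739, minus strand: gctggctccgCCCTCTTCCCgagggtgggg
Eif3f, chr7:108934400-108934429, plus strand: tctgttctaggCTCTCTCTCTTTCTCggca
Eif2b5, chr16:20498802-20498831, plus strand: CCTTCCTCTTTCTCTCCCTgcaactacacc
Eif3l, chr15:79075208-79075237, plus strand: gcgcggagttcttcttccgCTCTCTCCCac
Eif4b, chr15:102073758-102073787, plus strand: ggtCTTCCCgtcggacgccgcgccaccccc
Eif4g1, chr16:20672712-20672741, plus strand: cgccagcgcagctccgCCCTCTgcgccggt
Eef1b2, chr1:63176816-63176845, plus strand: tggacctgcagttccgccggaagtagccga
Eef2, chr10:81176616-81176645, plus strand: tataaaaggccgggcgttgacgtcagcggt
Eif3d, chr15:77970810-77970839, minus strand: gtggtagggccatttacgacagcgctggtc
Eif3k, chr7:28981874-28981903, minus strand: aaaacaaccggcgctggtgctgaaagcgcc
Eif5a2, chr3:28781262-28781291, plus strand: ggcgggcccgggctgggcgggccggggcgg

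A stretch of this kind lay in the window in 4 of the 8 promoters of genes that were lower in unstimulated Vim-/- neutrophils and in 11 of the 48 promoters of genes that did not pass. Over all genes of the tables it lay in 37.8% of 12488 promoters, which makes it a common feature of windows of this size. A C at the start itself followed by at least 4 such bases, as in the TOP motif, was rarer. It was found in 1 of the 8, 1 of the 48 and 2.45% of all promoters. Of 5 matched promoters of the genes listed below as TOP mRNAs, 1 had it. In Eef1a1 the stretch began 5 bases before the annotated start and in Eif3f 4 bases before it. In Eif3l it began at base 5 of the transcript, with the start counted as base 1. The windows of Eef1b2, Eef2, Eif3d, Eif3k and Eif5a2 held no such stretch.

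Vim itself, the check of the labels, had a log2 fold change of -13.56 (SE 0.335) in unstimulated and of -12.44 (SE 0.243) in LPS-treated neutrophils. Of all genes tested 6.15% were lower and 12.6% higher in unstimulated Vim-/- neutrophils. Of the cell type markers, all 12 for neutrophils were measured, and 5 were higher in this comparison (Itgam, Cxcr2, Mmp8, Camp and Ngp). The list's median log2 fold change was 0.32. S100a9, the most abundant, at 0.17 (SE 0.139), and Retnlg, the 1 gene below 0, at -0.20 (SE 0.272), did not pass. Of 8 progenitor and promyelocyte markers 7 were measured, 3 were lower in unstimulated Vim-/- neutrophils (Cd34, Prtn3 and Ctsg), and the median of the list was -1.01, while Kit was at 0.21 (SE 0.215) and did not pass. The baseMean summed to 4325248 over the neutrophil markers, 244312 over the progenitor and promyelocyte markers, 41116 over 5 of 6 monocyte markers and 440606 over 5 of 6 mast cell, basophil and eosinophil markers. Of the monocyte markers Csf1r and Adgre1 were lower and the list's median was -0.81, while Ly6c2, the most abundant, was at 0.23 (SE 0.162) and did not pass. Of the mast cell, basophil and eosinophil markers Cpa3 was lower and the median was -0.30, while Prg2 and Epx, the most abundant, were at 0.29 (SE 0.774) and 0.67 (SE 0.514) and did not pass. Of 4 lymphoid markers only Cd79a, at a baseMean of 83.8, was in the tables, and the 3 erythroid markers were not analysed here. After scaling of the Wald statistics by the robust spread that is given below, Ctsg and Cpa3 passed and the other marker calls of this comparison did not. Levels in each group are not in these tables. In bulk RNA, fewer cells of a type and less RNA per cell cannot be told apart, and the part of these markers in the values below was not tested.

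In unstimulated neutrophils 14 translation factors were lower and 3 were higher in Vim-/- than in Vim+/+ neutrophils. Among all genes tested 6.15% were lower and 12.6% were higher. The translation factors held a larger share of lower genes, 24.1%, and a smaller share of higher genes, 5.17%. Their median baseMean was 4523 against 907 over all genes. Their median SE was 0.170 against 0.270 in both genotype comparisons, so that a like fold change passed more readily among them. A comparison with genes of like baseMean was not run. Of the 58 genes 42 had a fold change below 0, and their median was -0.22 on the log2 scale against 0.08 over all genes. The 14 lower genes lay between -0.42 and -0.88, which is 1.34-fold to 1.84-fold less RNA. With an absolute log2 fold change over 1 also required, 2 of the 58 genes passed, Eif4e3 and Eif5a2, against 7.14% of all genes. The Wald statistics of all genes had a robust spread of 1.83 in this comparison, where 1 would follow from the SEs alone, and after they were centred and divided by it none of the 17 genes passed. The smallest adjusted p was then 0.0613, for Eif4e3, whose adjusted p ranged from 9.44e-09 to 0.0613 over the alternatives.

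**Figure D1:**
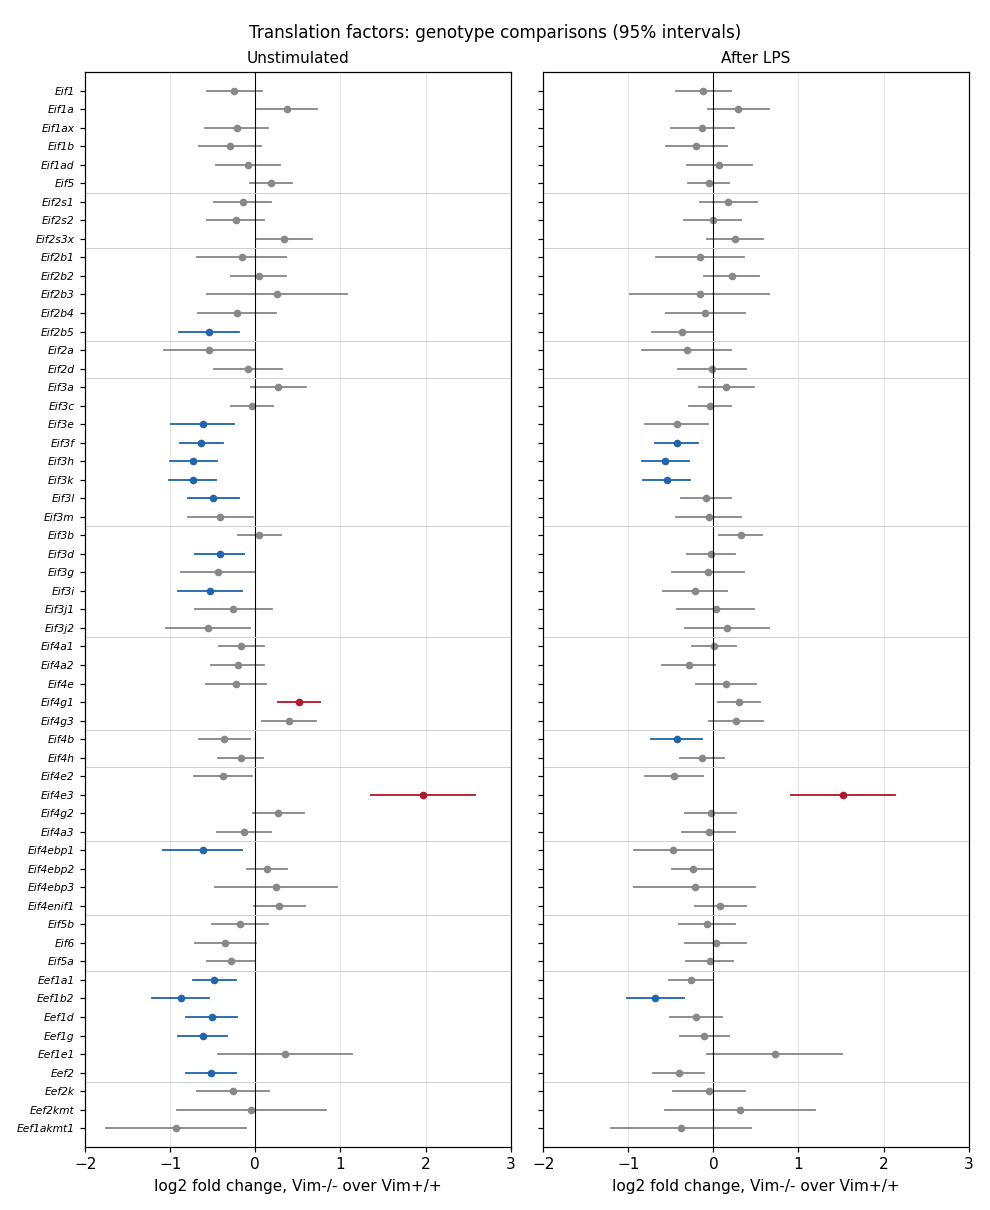
Log2 fold change of Vim-/- over Vim+/+ for 57 translation factors (points) with 95% intervals (lines), in unstimulated neutrophils (left) and after 1 hour of LPS (right). Genes are in the order of their roles, separated by thin lines, blue and red mark genes that passed lower and higher, and grey marks the rest. Eif5a2, at 3.86 and 3.14, lies outside the axes. The lower genes are mainly elongation factors and eIF3 subunits, and Eif4e3 is the far point on the right in both panels.

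Among the groups formed by role, the elongation factors had the largest share of lower genes. Of 6 measured genes in this group, which includes Eef1e1, 5 were lower in unstimulated Vim-/- neutrophils. The median of the 6 was -0.52. Eef1b2, which encodes a guanine nucleotide exchange subunit for eEF1A, was 1.84-fold lower (95% interval 1.46 to 2.31, log2 fold change -0.88, SE 0.169, adjusted p = 7.4e-06 by DESeq2's Wald test). The gene lies at chromosome 1, 63176831 to 63180486 (GRCm38). The other subunits of that exchange complex were lower as well, Eef1g by -0.62 (SE 0.148) and Eef1d by -0.51 (SE 0.155).

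Eef1a1, the carrier of aminoacyl tRNA, had the highest baseMean of the 58 genes, 307499, and was 1.40-fold lower (95% interval 1.18 to 1.67, adjusted p = 0.0021 by DESeq2). Eef2, the translocase, was 1.44-fold lower (95% interval 1.17 to 1.77, adjusted p = 0.0053 by DESeq2). Eef1e1, a subunit of the multi-tRNA synthetase complex in spite of its name, had a fold change of 0.35 (SE 0.402) and did not pass. Near-identical processed copies of Eef1a1 exist in the genome, and how reads shared with them were counted is not given in the sources used here. Eef1a2 was not analysed here.

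eIF3 is a large complex that binds the small ribosomal subunit and brings other initiation factors to it, and 7 of its 14 genes were lower in unstimulated Vim-/- neutrophils, with none higher. Their median was -0.47, and 12 of the 14 were below 0. In the octamer of subunits that forms the structural core, 5 of 8 genes were lower: Eif3k and Eif3h (both -0.73, SE 0.141), Eif3f (-0.63, SE 0.130), Eif3e (-0.62, SE 0.191) and Eif3l (-0.49, SE 0.151). For Eif3k this was 1.66-fold less RNA (95% interval 1.37 to 2.01, adjusted p = 6.9e-06 by DESeq2) and for Eif3h 1.66-fold less (95% interval 1.37 to 2.01, adjusted p = 8.51e-06 by DESeq2). Eif3f was 1.55-fold lower (adjusted p = 3.14e-05 by DESeq2).

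The other 3 octamer genes did not pass. Eif3a and Eif3c, the large subunits on which the octamer is built, had fold changes of 0.27 (SE 0.165) and -0.04 (SE 0.127), and whether these differed from those of the called subunits was not tested. Eif3m was at -0.41 (SE 0.194, adjusted p = 0.127 by DESeq2).

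Outside the octamer 2 of 6 eIF3 genes were lower. Eif3i was at -0.53 (SE 0.191), and Eif3d, a subunit that can bind the cap of some mRNAs, was at -0.42 (SE 0.145). For Eif3d 43.3% of the exon bases are also covered by Gm17638 on the opposite strand, and whether counting used strand is not given, so its reads are uncertain. Eif3b, a scaffold of the remaining subunits, was at 0.05 (SE 0.130), and Eif3g, which contacts the mRNA, at -0.45 (SE 0.218, adjusted p = 0.147 by DESeq2). The near-identical copies Eif3j1 and Eif3j2 were at -0.26 (SE 0.231) and -0.55 (SE 0.253), and reads cannot be assigned to either with certainty.

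Factors that select the start codon and carry the initiator tRNA were mostly not called. None of the 6 start-codon factors passed, and 1 of them had an unadjusted p under 0.05, against 3867 of all 13091 genes. Eif1, which guards start-codon choice, was at -0.25 (SE 0.164), its copy Eif1b at -0.30 (SE 0.185), and Eif5, which drives GTP hydrolysis by eIF2, at 0.18 (SE 0.123). The copies of the other scanning factor differed in sign without passing, Eif1a at 0.37 (SE 0.182), Eif1ax at -0.22 (SE 0.189) and the related Eif1ad at -0.09 (SE 0.193).

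Of the 3 measured subunits of eIF2 none passed. Eif2s1, whose product is the target of the eIF2 kinases, was at -0.15 (SE 0.171), Eif2s2 at -0.23 (SE 0.171), and Eif2s3x, the subunit that binds GTP and tRNA, at 0.34 (SE 0.168). Among 5 subunits of eIF2B only Eif2b5, which holds the catalytic domain for nucleotide exchange, passed, with a 1.46-fold lower level (95% interval 1.14 to 1.87, adjusted p = 0.0189 by DESeq2). Eif2b2 was at 0.04 (SE 0.166), and the remaining regulatory and catalytic subunits did not pass. Eif2a, which is not the eIF2 alpha subunit but a separate protein, was at -0.54 (SE 0.269, adjusted p = 0.153 by DESeq2), and Eif2d, which can deliver tRNA without GTP, at -0.09 (SE 0.206). Eif2s3y was not analysed here.

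Of the 3 genes that were higher in Vim-/- neutrophils, Eif4e3 and Eif4g1 belong to the cap-binding group. Eif4e3, an eIF4E relative that binds the cap in an unusual way, was 3.92-fold higher in unstimulated Vim-/- neutrophils (log2 fold change 1.97, 95% interval 1.36 to 2.59, SE 0.313, adjusted p = 2.21e-08 by DESeq2). Its relatives had values on the other side of 0, Eif4e, the main cap-binding protein, at -0.23 (SE 0.179) and Eif4e2, which acts mostly as a repressor, at -0.38 (SE 0.174), and neither passed. Per kilobase of the longest transcript, the baseMean was 565 for Eif4e, 836 for Eif4e3 and 1962 for Eif4e2. With the principal transcript the value of Eif4e2 was 3771, and those of Eif4e and Eif4e3 were unchanged. These are means over all 10 libraries, of which 6 are Vim-/-, and the order within each genotype is not in these tables. The gene lies at chromosome 6, 99621879 to 99692873 (GRCm38), and 14.8% of its exon bases are shared with Gm20696 on the same strand.

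Eif4g1, the main scaffold of the cap complex, was 1.43-fold higher (log2 fold change 0.51, 95% interval 0.26 to 0.76, adjusted p = 0.000813 by DESeq2). Its relatives Eif4g3 and Eif4g2 were at 0.40 (SE 0.161, adjusted p = 0.0654 by DESeq2) and 0.27 (SE 0.152, adjusted p = 0.219 by DESeq2). The helicases Eif4a1, Eif4a2 and Eif4a3, of which the last belongs to the exon junction complex, were at -0.16 (SE 0.133), -0.21 (SE 0.159) and -0.13 (SE 0.161), and their helpers Eif4b and Eif4h at -0.36 (SE 0.153) and -0.17 (SE 0.134). None of these 5 genes passed in unstimulated neutrophils.

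**Figure D2:**
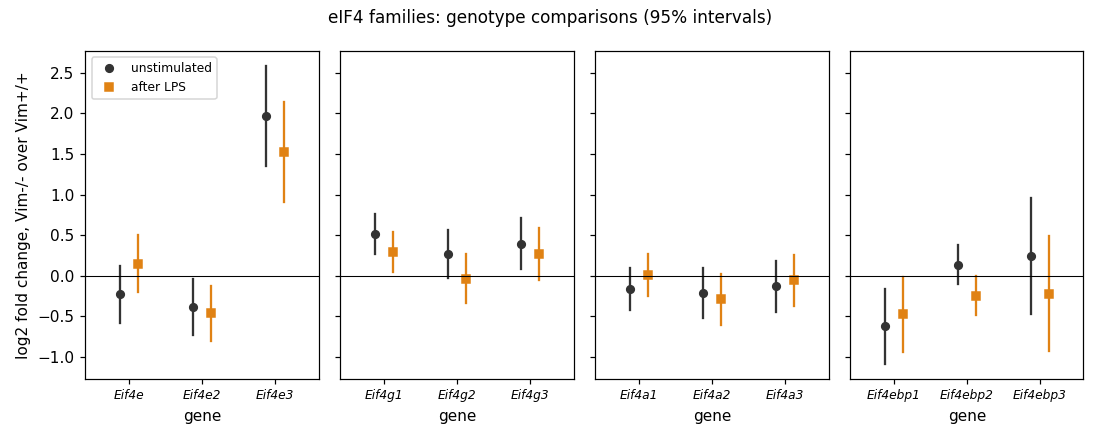
Log2 fold change of Vim-/- over Vim+/+ (points) with 95% intervals (lines) for the related copies of 4 eIF4 families, in unstimulated neutrophils (black circles) and after LPS (orange squares). Eif4e3 lies at 1.97 and 1.52, while Eif4e and Eif4e2 lie between -0.46 and 0.15.

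The eIF4E-binding proteins hold eIF4E away from the scaffold until mTORC1 phosphorylates them. Eif4ebp1 was 1.54-fold lower in unstimulated Vim-/- neutrophils (95% interval 1.12 to 2.12, adjusted p = 0.0466 by DESeq2). Eif4ebp2 was at 0.14 (SE 0.122) and Eif4ebp3 at 0.24 (SE 0.364), and neither passed. For Eif4ebp3 67.3% of the exon bases are shared with AC115631.1 on the same strand. Eif4enif1, which carries eIF4E into the nucleus, was at 0.28 (SE 0.153).

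Among the factors for subunit joining and for peptide bond formation at difficult sequences, the copies of eIF5A gave unlike values. Eif5a2 had a fold change of 3.86 (SE 1.36, adjusted p = 0.029 by DESeq2), but its baseMean of 65.0 was the lowest of the 58 genes and the 95% interval ran from 1.19 to 6.53 on the log2 scale. Eif5a, with a baseMean of 47824, was at -0.29 (SE 0.143, adjusted p = 0.155 by DESeq2). Eif5b, the GTPase of subunit joining, was at -0.18 (SE 0.167), and Eif6, which keeps the large subunit from joining too early, at -0.35 (SE 0.184). None of the 3 measured enzymes that modify elongation factors passed. Eef1akmt1, a lysine methyltransferase of eEF1A, had the most negative fold change of the 58 genes, -0.93, with an SE of 0.420, and did not pass, nor did Eef2k, the kinase that inhibits eEF2, at -0.26 (SE 0.215), or Eef2kmt at -0.05 (SE 0.446).

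After 1 hour of LPS 5 translation factors were lower and 1 was higher in Vim-/- than in Vim+/+ neutrophils, while 4.35% of all genes were lower and 6.68% higher. Eef1b2 was at -0.68 (adjusted p = 0.00142), Eif3h at -0.57 (adjusted p = 0.00153), Eif3k at -0.55 (adjusted p = 0.00221), Eif3f at -0.43 (adjusted p = 0.0128) and Eif4b at -0.43 (adjusted p = 0.0431), all by DESeq2. Eif4e3 was 2.88-fold higher (log2 fold change 1.52, SE 0.313, adjusted p = 4.8e-05 by DESeq2) and was the 1 gene among the 58 that also had an absolute log2 fold change over 1, which 5.32% of all genes passed. The median of the 58 genes was -0.06, against 0.03 over all genes, and 39 were below 0. After the Wald statistics were centred and divided by their robust spread of 1.5, none of the 6 passed. In the same comparison Cd34 (-0.67), Prtn3 (-0.79) and Ctsg (-2.06) of the progenitor and promyelocyte markers were lower, as were Csf1r (-1.19), Adgre1 (-0.58), Cpa3 (-0.72) and Cd79a (-4.19), and the neutrophil markers Camp (1.16) and Ngp (0.50) were higher. With the same scaling Ctsg, Csf1r, Cpa3 and Camp passed and the other marker calls did not. The list medians were -0.67 for progenitor and promyelocyte, -0.73 for monocyte, -0.02 for mast cell, basophil and eosinophil, and 0.22 for neutrophil markers, and their part in these fold changes was not tested.

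The genes that passed in unstimulated neutrophils had smaller fold changes after LPS. Of the 17 genes, all 17 were closer to 0, which their choice by a passed unstimulated value favors, and all 14 lower genes remained below 0. Both conditions share 5 called genes, which is 29.4% of the unstimulated calls and 83.3% of the calls after LPS. Over all genes the shares were 41.5% and 70.7%. Eif4b passed after LPS only, at -0.36 (SE 0.153, adjusted p = 0.0781 by DESeq2) before it, and its values in both conditions lay within the error of each other. Among the elongation factors the values of Eef1g lay farthest apart, -0.62 and -0.11, and among the octamer subunits those of Eif3l, -0.49 and -0.09. Whether any of these genotype fold changes differed between conditions is the same question as whether the LPS responses differed between genotypes, and its test follows.

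None of the 58 genes passed in either LPS comparison, where 2.17% of all genes passed in Vim+/+ and 2.21% in Vim-/- neutrophils by the Wald test of DESeq2. At an unadjusted p under 0.05 there were 2 genes in Vim+/+ neutrophils, Eif4g2 at 0.43 (SE 0.164) and Eif4g1 at 0.31 (SE 0.136). In Vim-/- neutrophils there were 2, Eif4ebp2 at -0.33 (SE 0.111, adjusted p = 0.0986 by DESeq2) and Eif3b at 0.27 (SE 0.118, adjusted p = 0.436 by DESeq2). Over all 13091 genes there were 1528 in Vim+/+ and 947 in Vim-/- neutrophils, which are larger shares. The most extreme fold changes in these comparisons had large SEs. In Vim+/+ neutrophils they were 0.48 (SE 0.394) for Eif4ebp3 and -0.39 (SE 0.483) for Eef2kmt. In Vim-/- neutrophils they were 0.33 (SE 0.229) for Eif3j2 and -0.60 (SE 0.841) for Eif5a2.

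The intervals bound how large a response could have been missed only as far as the SEs and the normal approximation hold, with 2 degrees of freedom. The robust spread of the Wald statistics of all genes was 1.17 in Vim+/+ and 0.95 in Vim-/- neutrophils. The 95% interval lay within a 2-fold change in either direction for 52 of the 58 genes in Vim+/+ and for 57 in Vim-/- neutrophils, and within a 1.5-fold change for 39 and 47. Eef1a1, for example, was at -0.14 (95% interval -0.41 to 0.14) and 0.08 (95% interval -0.14 to 0.31), and Eef2 at -0.05 and 0.07. The exceptions to the 2-fold bound in Vim+/+ neutrophils were Eef1akmt1, Eef1e1, Eef2kmt, Eif2b3, Eif4ebp3 and Eif5a2.

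**Figure D3:**
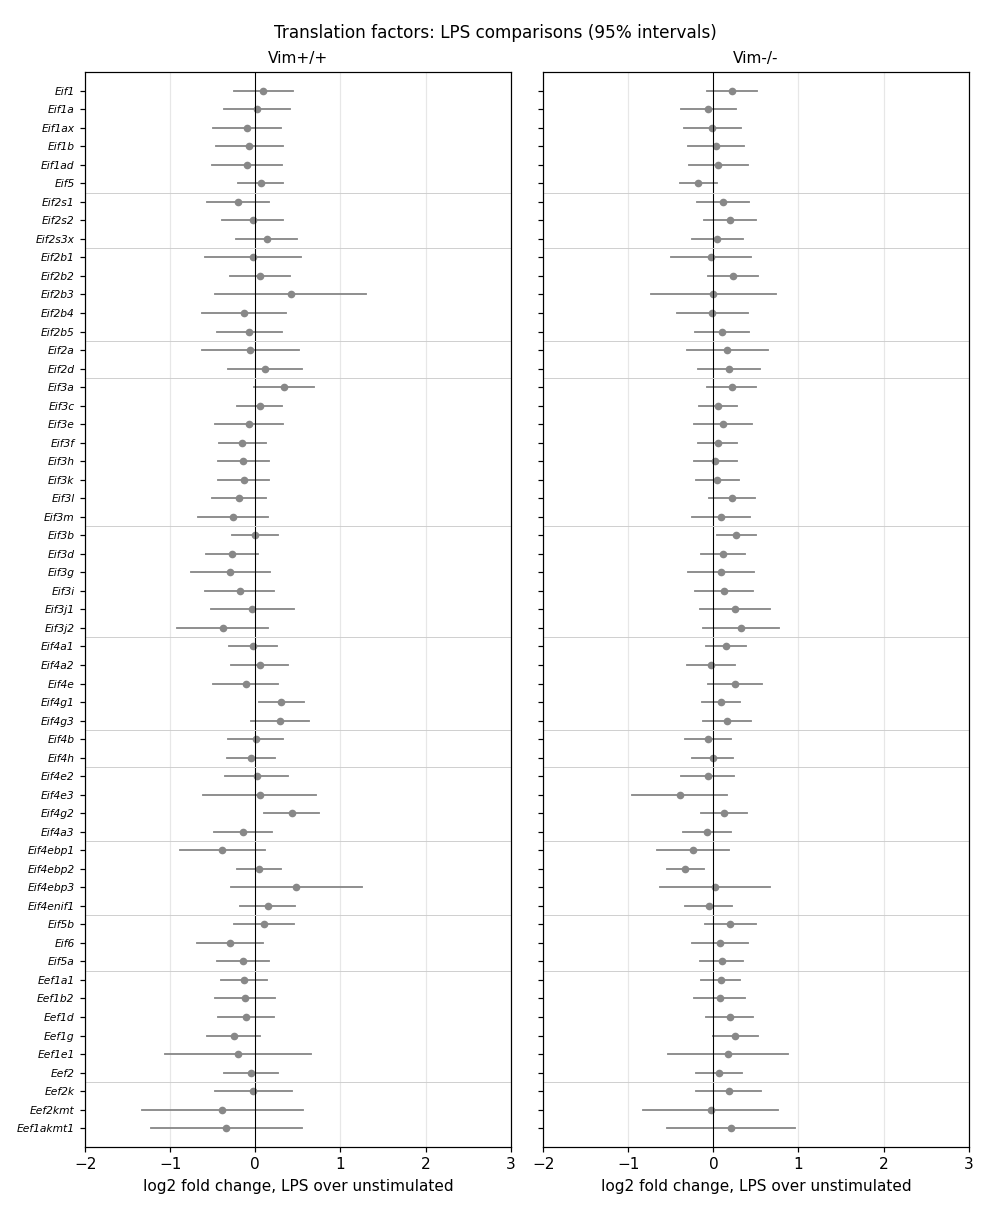
Log2 fold change of LPS over unstimulated for 57 translation factors (points) with 95% intervals (lines), in Vim+/+ neutrophils (left) and Vim-/- neutrophils (right), in the same order as the genotype plot. Eif5a2, with an SE of 1.79 and 0.84, lies outside the drawn set. All points are grey because no gene passed.

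The response to LPS in Vim-/- neutrophils minus that in Vim+/+ neutrophils passed in none of the 58 genes and in 0.0764% of all genes, by a two-sided normal test of the 2 fold changes with Benjamini-Hochberg adjustment over all genes. The smallest adjusted p was 0.712. An unadjusted p under 0.05 was found for 3 of the 58 genes and for 791 of all 13091 genes, which are similar shares. The 3 were Eef1g at 0.51 (SE 0.209), Eif3j2 at 0.71 (SE 0.356) and Eif4ebp2 at -0.38 (SE 0.172). The difference was above 0 in 42 of the 58 genes, with a median of 0.16 against -0.04 over all genes. All 6 genes of the elongation group, which includes Eef1e1, and 13 of 14 eIF3 genes had a difference above 0, against 45.6% of all genes. Of the eIF4 genes 10 of 15 had one below 0, which is 66.7% against 54.4% of all genes. The difference equals the genotype fold change after LPS minus the unstimulated one, so a low unstimulated value raises it. The SEs in these tables do not give their covariance, so the test is approximate, and it does not show that the genotypes responded alike.

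Transcript length moved with the genotype fold change. Across genes, which are not independent replicates, the Spearman correlation of the unstimulated fold change with transcript length (the longest transcript in GENCODE) was 0.44 over the 58 translation factors and 0.29 over 12046 genes. After LPS it was 0.29 and 0.13. The median length was 2334 bases for the lower translation factors, against 3200 bases over all genes. Of the 35 translation factors shorter than that, 13 were lower and 1 was higher, with a median of -0.35 against -0.10 over all shorter genes, of which 9.59% were lower. Of the 23 longer ones 1 was lower (Eif3e) and 2 were higher, with a median of -0.09 against 0.24 over all longer genes, of which 2.90% were lower.

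Within either range of length the median of the translation factors thus lay below that of all genes. When each fold change was set against genes of like length, 11 of the 17 genes passed, and Eef1a1, Eif3d, Eif3i, Eif4ebp1, Eif4g1 and Eif5a2 did not. The fold changes of Eef1a1 and Eif4g1 became -0.28 and 0.22, more than 1.5 times smaller, while those of Eif3d (-0.37), Eif3i (-0.48), Eif4ebp1 (-0.51) and Eif5a2 (3.64) stayed within 1.5 times of the deposited values. In that setting Eif5b, Eif4b and Eef2k passed as lower. With the principal transcript in place of the longest, a setting chosen after the data were seen, 9 of the 17 passed, and Eif3k (-0.37, adjusted p = 0.0632), Eif3e (-0.42, adjusted p = 0.143) and Eif3l (-0.36, adjusted p = 0.0989) were among those that did not, as was Eif3i (-0.33). In that setting Eif5b, Eif4b, Eef2k and Eif4e (-0.51) passed as lower and Eif4g2 (0.64) as higher, and all of these values except that of Eif4b were over 1.5 times the deposited ones. Over the alternatives without a fold threshold the adjusted p ranged from 8.04e-07 to 0.128 for Eif3k, from 0.00215 to 0.631 for Eif3e and from 0.0032 to 0.63 for Eif3l. The part of length in these fold changes was not tested beyond this, and values for RNA integrity are not in these tables.

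**Figure D4:**
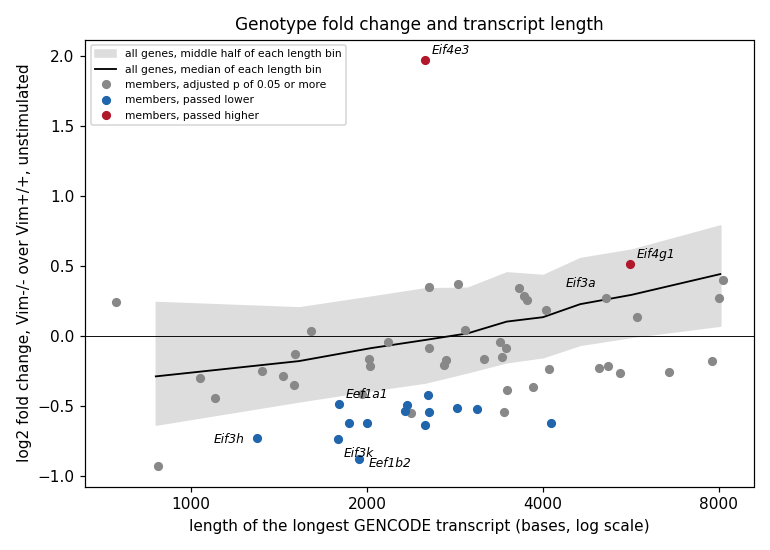
Log2 fold change of Vim-/- over Vim+/+ in unstimulated neutrophils against the length of the longest transcript (log scale) for 57 translation factors (points; Eif5a2 not drawn). The line and grey band give the median and the middle of the distribution, from the lower to the upper quartile, of all genes in 10 bins of length. Most blue points lie below the band at lengths of 1295 to 4123 bases, and Eif4e3 lies far above it.

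The 9 genes listed as TOP mRNAs (Eef1a1, Eef1b2, Eef1d, Eef1g, Eef2, Eif3e, Eif3f, Eif3h and Eif4b) held 8 of the 14 lower calls. The list was drawn up from general knowledge of TOP mRNAs with earlier results of these data known, so its counts are a description and no independent evidence. Of these 9 genes 8 were lower in unstimulated Vim-/- neutrophils, against 6.15% of all genes, all 9 were below 0, and their median was -0.62. After LPS 4 of the 9 were lower, against 4.35% of all genes, and the median was -0.43. Of the 49 other translation factors 6 were lower and 3 higher, with a median of -0.17, and the 6 lower genes were Eif2b5, Eif3d, Eif3i, Eif3k, Eif3l and Eif4ebp1. Neither LPS comparison called any of the 9, whose medians were -0.12 in Vim+/+ and 0.08 in Vim-/- neutrophils. The list took translation factors only, so its counts do not describe TOP mRNAs of other genes, such as Pabpc1. The genotype fold change of Pabpc1 was 0.16 (SE 0.130) in unstimulated and 0.07 (SE 0.129) in LPS-treated neutrophils, and it passed in neither.

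The other genes of the pathway, 45 measured of 46 listed, had 3 lower and 2 higher genes in unstimulated Vim-/- neutrophils, with a median of 0.04. These shares, 6.67% lower and 4.44% higher, stand beside 6.15% and 12.6% over all genes, so the share of lower genes was near that of all genes. Of 9 genes for eIF2 kinases and the stress response, Eif2ak3, the kinase of endoplasmic reticulum stress, was at 0.82 (SE 0.200, adjusted p = 0.000638), Ppp1r15b, which keeps eIF2 dephosphorylated at rest, at 0.39 (SE 0.121, adjusted p = 0.012), and Ppp1r15a, its inducible counterpart, at -0.80 (SE 0.197, adjusted p = 0.000832), all by DESeq2. Of 14 genes of mTORC1 and its targets 2 were lower, the S6 kinase gene Rps6kb2 at -0.58 (SE 0.195) and the mTORC1 component Akt1s1 at -0.54 (SE 0.208). None of 5 poly(A)-binding genes, 8 measured termination, recycling and reinitiation genes or 9 mitochondrial translation factors passed in unstimulated neutrophils. Each group had 1 gene at an unadjusted p under 0.05, against 3867 of all 13091 genes. Of the poly(A)-binding genes 3 were above 0 and 2 below, and Pabpc1, with the highest baseMean, was at 0.16 (SE 0.130).

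After LPS Ppp1r15a at -0.65 (SE 0.194) and Akt1s1 at -0.60 (SE 0.208) were lower in Vim-/- neutrophils, and the ribosome recycling factor Abce1 at 0.54 (SE 0.177) and the mitochondrial elongation factor Tsfm at 0.86 (SE 0.305) were higher. Ppp1r15a was the 1 gene of these lists that rose with LPS, by 1.97 (SE 0.211) in Vim+/+ and by 2.11 (SE 0.178) in Vim-/- neutrophils on the log2 scale, with adjusted p-values of 3.92e-18 and 5.94e-30 by DESeq2. After scaling by the robust spread none of these genotype calls of the other lists passed, and with length centring Ppp1r15b, Abce1 and Akt1s1 in both conditions also did not pass. The LPS calls of Ppp1r15a were kept in both settings. Its difference between genotypes was 0.14 (SE 0.276, adjusted p = 1.0 by the normal test).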

How the data were processed

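RNA was measured in 10 libraries of neutrophils in 4 groups. Reads were trimmed by the authors (Cutadapt 4.4), then mapped to mm10 and counted (STAR 2.7.10b), and 1 model with 4 RUVSeq covariates was fitted in DESeq2 1.26.0; the versions are those in the submitters' processing notes and the study's methods. The deposited tables hold 4 comparisons and no values per library. The signal baseMean is the authors' mean normalized count. The log2 fold changes and their SEs, the score (the Wald statistic) and the p-values are those of the authors' model as deposited, and these columns were used because no others are present. Counting annotation and strand are not given in the sources used here. The number of unused columns of per-sample values is 0. Fold changes of genotype were turned to Vim-/- over Vim+/+ by sign, with 95% intervals of 1.96 SE, in Python 3.11.15 with numpy 2.4.6, scipy 1.17.1, pandas 2.3.3 and matplotlib 3.10.9. Scripts were tested on simulated data. Members and lists were chosen with earlier results of these data known. Adjusted p-values were deposited for 12837 of 13091 genes in the genotype comparisons, 13091 for LPS in Vim+/+ and 12329 for LPS in Vim-/- neutrophils, and shares of all genes use these numbers. The text names genes that passed, the 2 highest by baseMean in each subgroup, related copies, the extremes of each comparison, and passed genes of other lists. Lengths and overlaps come from GENCODE M21 on GRCm38, and start sequences from RefSeq on GRCm38.p6. Alternatives were scaling of the Wald statistics, centring of fold changes, length, a baseMean minimum of 100, adjustment over all genes and a fold threshold.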

Additional observations from a re-analysis of the deposited data

How the results depend on the processing

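No paired analysis was possible because the deposited tables hold no values per library, and leaving out each replicate in turn was not run for the same reason. Of the 14 genes lower and 3 higher in unstimulated neutrophils, 0 and 0 passed after the Wald statistics were centred and divided by their robust spread, 0 lower genes passed with an absolute log2 fold change over 1 required, and 1 higher gene passed once fold changes were set against genes whose longest transcript was of similar length. After LPS 5 lower and 1 higher gene became 0 and 0 with the scaled Wald statistics, and 0 lower genes passed with the fold threshold. The count of 0 in Vim+/+ neutrophils given LPS became 1 with centring on the length of the principal transcript, a setting chosen after the data were seen. Dividing by a spread above 1 shrinks every statistic by construction, and why that spread was above 1 was not tested. With the principal transcript 9 of the 17 unstimulated calls and 5 of the 6 after LPS were kept, and Eif3k was lost in both. With centring on the median gene, adjustment over every gene or a baseMean minimum of 100, all 23 calls of the translation factors were kept except that of Eif5a2, which the minimum left out. Of the calls of the other lists, Tsfm was lost with centring on the median gene. No direction of these called genes reversed. Depth of libraries is unknown, and precision rests on 2 and 3 replicates.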
